A study of Mus musculus with 8 samples.

Results

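The 6 genes described here encode the platelet-derived growth factor (PDGF) chains Pdgfa, Pdgfb, Pdgfc and Pdgfd and the receptors Pdgfra and Pdgfrb. They were taken by name from the array's annotation, and all 6 of 6 were found among the 19938 genes measured. Each had 1 probe set of its own and none shared with another gene, so the measured value by which probe sets were selected, the mean over the 8 arrays, had no choice to make for them. The genes themselves were chosen by earlier results of these data, in which Pdgfb and Pdgfrb had already been seen to differ between vector and Daxx arrays. The p-values below are therefore given as descriptions of size against spread, and those of these 2 genes are no independent support.

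PDGF chains are secreted as dimers that bring together receptor tyrosine kinases on mesenchymal cells and drive their division and migration. PDGF-A and PDGF-C act mainly through the alpha receptor, PDGF-B binds both receptors, and PDGF-D acts mainly through the beta receptor. PDGF-C and PDGF-D carry an extra CUB domain that proteases must remove before the factor can bind. Fibroblasts express the receptors strongly, and serum, in which these cells were grown, contains PDGF released by platelets.

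The cells were embryonic fibroblasts of Daxx knockout mice on the FVB/N background, and every group carried that knockout. Daxx is a chaperone of the histone variant H3.3 and a regulator of transcription. The vector group (4 arrays) had received a vector, and the DaxxA and DaxxB groups (2 arrays each) had received Daxx. The letters A and B are not explained in the labels, nor is the promoter of the transgene, nor whether arrays of a group came from separate cultures or clones. A p-value here thus reflects only the spread among these arrays, part or all of which may be technical. The study asked which genes Daxx regulates. Values are deposited log2 signals of Affymetrix mouse gene arrays, so a difference of 1 is 2-fold. Differences are given with a standard error (SE) from limma and a p-value adjusted over all genes by Benjamini-Hochberg, and a gene was called when that p was below 0.05.

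Signal for Daxx itself was 7.15 ± 0.216 (SD, n = 4) with vector and 7.35 ± 0.0964 (SD, n = 4) with Daxx, with limma giving a difference of 0.20 (95% interval -0.05 to 0.44, adjusted p = 0.46). It therefore did not separate the groups, and all directions rest on the labels. Vector replicate 2 stood apart: its interquartile range was 2.79 against 3.31 to 3.39 in the other 7 arrays, and 1015 olfactory receptor genes, taken as a floor of signal, had a median of 5.21 on it and of 4.65 to 4.70 on the others. Results for the PDGF genes, and list counts for Daxx minus vector, are therefore given with and without it. Fibroblast markers were present: 14 of 16 measured had a mean above the 95th percentile of those receptor genes, among them vimentin (Vim, 13.3) and Col1a1 (11.4), while Lum (4.57) and Fap (4.82) were not. That percentile was 6.07. Markers of other cell types lay on both sides of it: 9 of 11 for smooth muscle and pericytes, 4 of 8 for endothelium, 4 of 10 for blood and platelets, 3 of 7 for epithelium and 4 of 6 for neural cells lay above. Below it were the endothelial Pecam1 (5.45) and Cdh5 (5.86), the leukocyte Ptprc (5.46) and the platelet Pf4 (4.83), and above it the endothelial Vwf (6.50), the macrophage Cd68 (7.32) and the platelet Itga2b (6.89). All 6 PDGF genes lay above it.

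The PDGF genes moved in opposing directions. In the Daxx arrays Pdgfa and Pdgfb were higher, Pdgfd, Pdgfra and Pdgfrb were lower, and Pdgfc did not pass the test. Thus 2 of the 6 rose, where 1.8% of all 19938 genes were called higher, and 3 fell, where 2.73% were called lower (4.52% in either direction). The 4 Daxx values lay wholly to one side of the 4 vector values for 5 of the 6 genes, and for 14.8% of all genes. On 7 arrays, without vector replicate 2, the same 2 rose (background 5.26%) and the same 3 fell (7.57%). Pdgfb and Pdgfrb are among these 5 and had been seen to differ beforehand. Neither these counts of members nor those below are therefore independent support. The median difference of the 6 was -0.28, and that of all genes -0.03, but with members on both sides a median says little of them. Leaving out 1 array moved the number of genes called from 902 to between 446 (without DaxxB replicate 2) and 2558 (without vector replicate 2). Those 5 genes were called each time, with Pdgfra nearest the threshold (limma adjusted p up to 0.048, without DaxxA replicate 1).

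**Figure D1:**
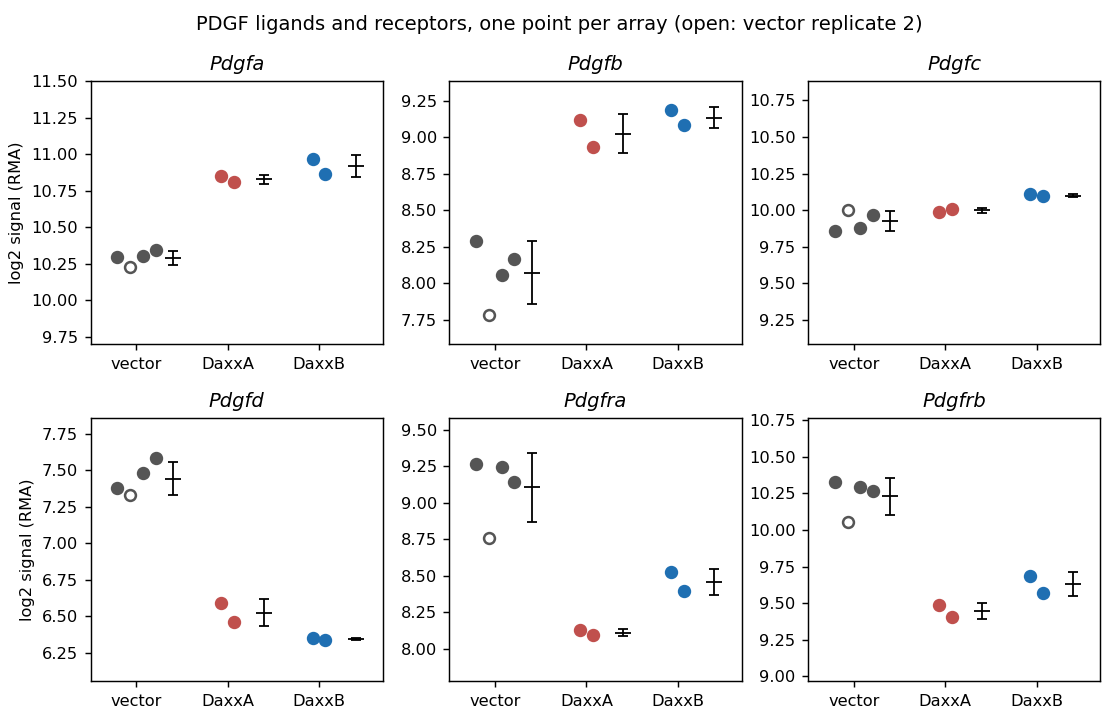
Log2 signal (vertical axis, each panel spanning the same range) of the 6 PDGF genes in the vector, DaxxA and DaxxB arrays, 1 point per array, with the group mean and SD as bars to the right. The Daxx arrays lie above all vector arrays for Pdgfa and Pdgfb and below them for Pdgfd, Pdgfra and Pdgfrb, and Pdgfc overlaps; the open point is vector replicate 2.

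Pdgfb encodes the B chain, the ligand that engages both receptors and recruits pericytes to vessels. It read 8.29, 7.78, 8.06 and 8.16 in vector replicates 1 to 4, then 9.12 and 8.93 in the DaxxA arrays and 9.18 and 9.08 in the DaxxB arrays. The Daxx arrays were all higher, the nearest 2 values of the groups being 0.64 apart, and vector replicate 2 was the lowest array. Pdgfb rose 2.01-fold (log2 difference 1.01, SE 0.109, adjusted p = 0.00114 in limma), the 5th highest difference of all genes. On 7 arrays the difference was 0.91 (SE 0.0703, adjusted p = 1.53e-05) and the 8th highest.

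Pdgfa encodes the A chain, which signals through the alpha receptor and in development acts from epithelium on mesenchyme. The vector arrays read 10.30, 10.23, 10.30 and 10.34, the DaxxA arrays 10.85 and 10.81, and the DaxxB arrays 10.97 and 10.87. All 4 Daxx arrays were higher, by at least 0.46. Its groups were the tightest of the members that moved, with an SD of 0.0464 (vector) and 0.069 (Daxx). Pdgfa rose 1.50-fold (log2 difference 0.58, SE 0.0553, adjusted p = 0.000586 in limma). Leaving out vector replicate 2 gave 0.56 (SE 0.0484, adjusted p = 3.26e-05), so this array altered the estimate little.

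Pdgfd, the ligand of the beta receptor that needs proteolytic activation, went the other way. Its values were 7.38, 7.33, 7.48 and 7.58 in vector replicates 1 to 4, 6.59 and 6.46 in the DaxxA arrays and 6.35 and 6.34 in the DaxxB arrays. Every Daxx array was lower than every vector array, by at least 0.74. Pdgfd fell 2.01-fold (log2 difference -1.01, SE 0.0799, adjusted p = 0.000202 in limma), and its p-value was the smallest among the 6. The difference was -1.05 without vector replicate 2 (SE 0.0706, adjusted p = 5.37e-06). Its mean of 6.94 lay above 99.2% of the olfactory receptor genes, and the other 5 members lay above all of them. The Daxx mean of 6.44 was near the 95th percentile of 6.07, where background compresses differences.

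Pdgfc, the other ligand activated by proteolysis, read 9.85, 9.999, 9.88 and 9.96 in the vector arrays, 9.99 and 10.01 in the DaxxA arrays and 10.11 and 10.10 in the DaxxB arrays. The groups overlapped. Its difference of 0.13 (SE 0.0578, 95% interval -0.0034 to 0.26) had an adjusted p of 0.342 in limma. The interval holds changes up to a 0.26 rise, which is smaller than the estimates for the other 5 genes. With the highest vector array for this gene, replicate 2, left out, the value was 0.15 (adjusted p = 0.0759).

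Both receptors were lower in the Daxx arrays. Pdgfra, the alpha receptor and a marker of mesenchymal progenitors, read 9.27, 8.76, 9.25 and 9.14 in vector replicates 1 to 4, 8.13 and 8.09 in the DaxxA arrays, and 8.52 and 8.39 in the DaxxB arrays. Vector replicate 2 was the vector array closest to the Daxx arrays, 0.23 above the highest of them. Pdgfra fell 1.76-fold (log2 difference -0.82, SE 0.138, adjusted p = 0.0119 in limma). The fall was -0.94 without that array (SE 0.0963, adjusted p = 0.000117), with the spread of the vector group narrowed.

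Pdgfrb, the beta receptor of fibroblasts, pericytes and smooth muscle, read 10.33, 10.05, 10.29 and 10.26 in the vector arrays, 9.49 and 9.41 in the DaxxA arrays, and 9.69 and 9.57 in the DaxxB arrays. The groups were 0.37 apart at their nearest. Pdgfrb fell 1.62-fold (log2 difference -0.70, SE 0.0837, adjusted p = 0.00202 in limma), and by 0.76 without vector replicate 2 (SE 0.0633, adjusted p = 2.53e-05). In bulk RNA, fewer cells with a transcript and less transcript per cell cannot be told apart.

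The promoter sequences available for members that moved are printed here because a gene that rose and 2 genes that fell can be set side by side. They are the 250 bases before the start listed by RefSeq (GRCm38.p6), 5′ to 3′ on the gene's strand, with each CG dinucleotide in capitals. The windows are chr5:138994945-138995194 (minus strand) for Pdgfa, chr9:6168236-6168485 (plus strand) for Pdgfd and chr5:75152001-75152250 (plus strand) for Pdgfra. Pdgfa has 2 listed starts, and the window of the more upstream one is shown. For all 3 genes the annotated gene begins further upstream or inside the window, so other transcripts may start elsewhere.
Pdgfa: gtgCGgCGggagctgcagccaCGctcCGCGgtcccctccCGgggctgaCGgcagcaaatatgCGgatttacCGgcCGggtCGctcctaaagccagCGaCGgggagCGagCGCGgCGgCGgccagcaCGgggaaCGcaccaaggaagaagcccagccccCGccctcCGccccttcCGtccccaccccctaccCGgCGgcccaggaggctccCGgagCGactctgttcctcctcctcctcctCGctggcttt
Pdgfd: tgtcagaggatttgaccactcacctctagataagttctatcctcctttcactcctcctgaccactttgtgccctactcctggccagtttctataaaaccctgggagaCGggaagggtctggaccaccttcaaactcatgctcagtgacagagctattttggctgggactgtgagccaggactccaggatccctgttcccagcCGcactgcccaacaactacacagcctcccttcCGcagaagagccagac
Pdgfra: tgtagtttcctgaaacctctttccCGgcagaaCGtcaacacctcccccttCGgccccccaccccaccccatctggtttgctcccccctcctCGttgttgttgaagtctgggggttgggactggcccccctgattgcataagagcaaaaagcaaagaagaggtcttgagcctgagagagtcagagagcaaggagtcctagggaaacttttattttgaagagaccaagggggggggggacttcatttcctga
The window of Pdgfa held 28 CG dinucleotides, more than 92.4% of the 32851 RefSeq windows of this length, which had a median of 6. Its other window, at the downstream start, held 19, more than 80.3% of windows, and 1 GC box. Those of Pdgfd and Pdgfra held 3 and 4. The window of Pdgfc, the ligand that was not called, also held 3. A GC box (GGGCGG on either strand) occurred at 2 places in the printed Pdgfa window and at 0 in those of Pdgfd and Pdgfra, where 32.7% of all windows hold one. The Pdgfd window held 1 TATA box (TATAAA on either strand, 12.4% of all windows). Neither CCAAT (33.9% of windows) nor the AP-1 sequence TGANTCA (6.75%) was found in any of them on either strand. Such matches describe these letters and were not tested against the changes.

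The Daxx groups were then compared with vector one at a time; these comparisons share the vector arrays. DaxxA arrays had 2 members higher (0.522% of all genes were) and 3 lower (1.45%). DaxxB arrays had 2 higher (0.767%) and 2 lower (1.92%). Pdgfb was 0.95 higher in DaxxA (SE 0.138, adjusted p = 0.018) and 1.06 higher in DaxxB (SE 0.138, adjusted p = 0.00977). Pdgfa was 0.54 higher in DaxxA (adjusted p = 0.00705) and 0.63 in DaxxB (adjusted p = 0.0034). Pdgfd differed by -0.92 in DaxxA (adjusted p = 0.00262) and -1.10 in DaxxB (adjusted p = 0.000996). Among the receptors Pdgfra differed by -0.99 in DaxxA (SE 0.144, adjusted p = 0.0178) and by -0.65 in DaxxB (adjusted p = 0.0728), the value that missed the threshold. Pdgfrb differed by -0.79 in DaxxA (SE 0.0919, adjusted p = 0.00675) and -0.61 in DaxxB (adjusted p = 0.0176). For Pdgfc the values were 0.08 (adjusted p = 0.766) and 0.18 (adjusted p = 0.25). Directions were the same in both groups for all 6 genes.

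**Figure D2:**
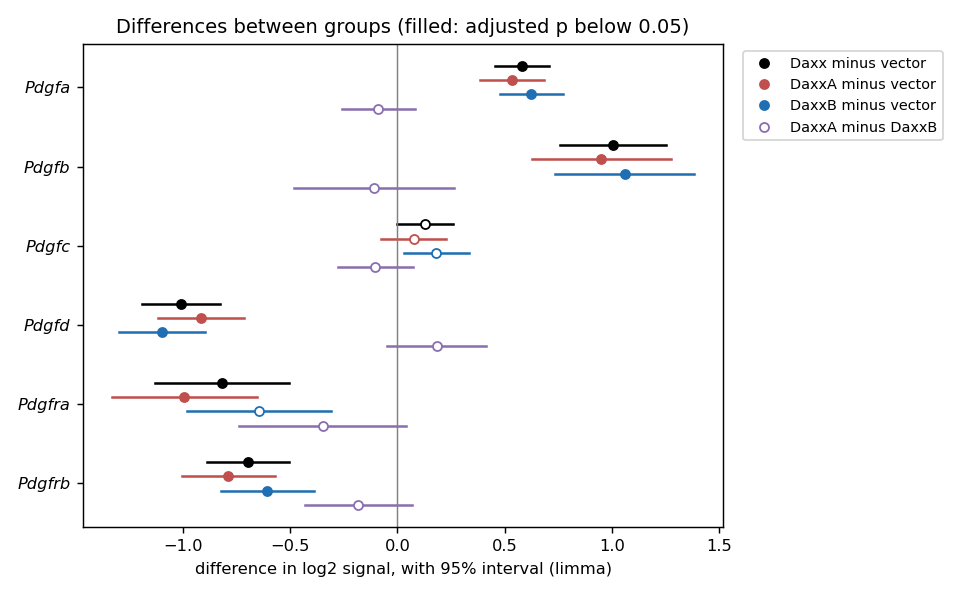
Differences in log2 signal (horizontal axis) of each PDGF gene with 95% intervals from limma, for Daxx minus vector, DaxxA minus vector, DaxxB minus vector and DaxxA minus DaxxB, filled where the adjusted p is below 0.05. All 4 comparisons of Pdgfc are open, and no DaxxA minus DaxxB difference is filled.

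With 2 arrays a group many of these separate calls fell short of the threshold when 1 array was left out, and where 1 Daxx array is left that array is assumed to vary like the other groups. In DaxxA, Pdgfa was not called without DaxxA replicate 1 (limma adjusted p = 0.122) or 2 (0.108), nor was Pdgfrb (0.0872 and 0.131). Pdgfd was not called in DaxxA without DaxxA replicate 2 (adjusted p = 0.0643). Pdgfb lost the DaxxA call without DaxxA replicate 1 (0.235) or 2 (0.147), without either DaxxB replicate (0.0558 each), and without vector replicate 3 (0.0699) or 4 (0.0532). For Pdgfra in DaxxA, the call was lost without DaxxA replicate 1 (0.196) or 2 (0.226), either DaxxB replicate (0.0539 each), and vector replicates 1 (0.0607), 3 (0.0645) or 4 (0.0664). In DaxxB, Pdgfa was not called without DaxxB replicate 1 (0.0784), and Pdgfb without DaxxB replicate 1 (0.147) or 2 (0.122). Pdgfrb lost its DaxxB call without DaxxB replicate 1 (0.144) or 2 (0.233), either DaxxA replicate (0.0529 each), and vector replicates 1 (0.0642), 3 (0.0717) or 4 (0.0635). Without vector replicate 2 instead, all 6 genes were called in DaxxB, Pdgfra at -0.76 (adjusted p = 1.02e-05) and Pdgfc at 0.21 (adjusted p = 0.0171), but so were many other genes: 10.9% of all genes were called higher and 9.53% lower in that fit. In DaxxA 4.46% were higher and 6.8% lower on these 7 arrays. Over these fits the number of members called ran from 0 to 5 in DaxxA, while 71 to 2246 of all 19938 genes were called, and from 1 to 6 in DaxxB, with 82 to 4083 genes called. The differences themselves moved little where a call was lost. In DaxxA those of Pdgfa were 0.51 and 0.56, those of Pdgfb 0.86 to 1.04, that of Pdgfd -0.85, those of Pdgfra -1.01 to -0.94 and those of Pdgfrb -0.83 and -0.75. In DaxxB that of Pdgfa was 0.57, those of Pdgfb 1.01 and 1.11, and those of Pdgfrb -0.66 to -0.55. Leaving out a DaxxB array does not enter a DaxxA difference, nor the reverse, so there only the estimate of spread changed.

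The difference between the DaxxA and DaxxB arrays was tested directly. On average both receptors read lower in the DaxxA arrays, Pdgfra by 0.35 (95% interval of the difference -0.74 to 0.04) and Pdgfrb by 0.18 (-0.43 to 0.07). The mean of Pdgfd was higher in DaxxA (0.18, interval -0.05 to 0.41), and those of Pdgfa and Pdgfc were lower (-0.09, interval -0.26 to 0.08, and -0.10, interval -0.28 to 0.07). That of Pdgfb was lower as well (-0.11, interval -0.48 to 0.26). With 2 arrays a group such an ordering of means arises easily by chance, and each of these intervals held 0. No member was called, with an adjusted p of 1.0 for each in limma, and 0.0% of all genes were, although 846 had an unadjusted p below 0.05. Without vector replicate 2, which enters only the estimate of spread, 428 genes (2.15%) and 1 member were called: Pdgfra, at -0.35 (adjusted p = 0.031). From high to low, group means ran vector, DaxxB, DaxxA for both receptors and DaxxB, DaxxA, vector for Pdgfa, Pdgfb and Pdgfc. For Pdgfd they ran vector, DaxxA, DaxxB. In the main analysis DaxxA and DaxxB were not distinguished beyond their spread. Weighting the arrays, again with all 8, called 485 genes and 1 member, Pdgfra (limma adjusted p = 0.0284).

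Genes around the PDGF pathway were taken from 6 lists, which were drawn up with earlier results of these data known. Their counts are for Daxx minus vector and stand beside 1.8% of all genes called higher and 2.73% lower on 8 arrays, and 5.26% and 7.57% on the 7 arrays without vector replicate 2. Proteases that process PDGF chains had 7 measured members, of which 1 rose and 0 fell (median -0.065). Plau, the urokinase that can activate PDGF-D, rose 1.41-fold (log2 difference 0.49, adjusted p = 0.00717 in limma). Values were -0.11 (adjusted p = 0.477) for Plat, the plasminogen activator that cleaves PDGF-C, -0.47 (adjusted p = 0.0624) for the convertase Pcsk6 and -0.07 (adjusted p = 0.755) for Pcsk5. The mean of Pcsk5 (5.99) lay below the olfactory receptor percentile of 6.07. On 7 arrays 2 of the 7 fell: Pcsk6 (-0.60, adjusted p = 1.92e-05) and Plat (-0.16, adjusted p = 0.0335).

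Proteins that bind PDGF or assist its receptors had 0 of 8 members higher and 3 lower (median -0.13). Dcn, the proteoglycan decorin, fell 2.76-fold and Thbs1, a matricellular protein, fell 1.80-fold (limma adjusted p = 5.47e-05 for each). Nrp2, a co-receptor of semaphorins and VEGF, fell 1.42-fold (adjusted p = 0.00531). Nrp1 differed by -0.29 (adjusted p = 0.0566, and 0.00894 without vector replicate 2, where 4 of the 8 fell). Both genes were known from earlier results of these data when the list was drawn up.

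Of the 25 measured adaptors, kinases and enzymes below the receptors 2 rose and 1 fell, and the list's median was 0.00. Akt1, a survival kinase, rose 1.20-fold (adjusted p = 0.0184 in limma). Nck2, an adaptor that links receptors to actin, rose 1.26-fold (adjusted p = 0.0196), and Pik3r1, the regulatory subunit of phosphoinositide 3-kinase, fell 1.18-fold (adjusted p = 0.0268). Stat3, a transcription factor, differed by -0.22 (adjusted p = 0.123) and was called on 7 arrays (-0.27, adjusted p = 0.00348), where 3 of the list rose and 2 fell. These calls were fragile. Akt1 was called without vector replicate 2 or 4 only, Nck2 without vector replicate 2 or 3 or DaxxA replicate 2 only, and Pik3r1 without vector replicate 2 only. When any 1 of the other arrays was left out their adjusted p rose to at most 0.0797 for Akt1, 0.0728 for Nck2 and 0.102 for Pik3r1. Genes that end receptor signalling, such as the ubiquitin ligase Cbl (0.09, adjusted p = 0.655), had 0 of 9 members called in limma, with a median of 0.07. An unadjusted p below 0.05 was reached by 2 of the 9 and by 3076 of all 19938 genes. Besides Cbl, those of this list with the smallest p were Lrig1 (0.36, adjusted p = 0.0642), Socs3 (-0.18, adjusted p = 0.192) and Acp1 (0.07, adjusted p = 0.655). On 7 arrays Lrig1, a membrane protein that restrains receptor kinases, was called at 0.27 (adjusted p = 0.0033).

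Early genes that PDGF or serum induces in resting fibroblasts had 4 of 22 members higher and 1 lower, with 17 of the 22 above 0 and a median of 0.15 against -0.03 for all genes. Of all 19938 genes 8325 lay above 0. Without vector replicate 2 these counts were 16 of the 22 and 11381 of all genes. Ier3, an early response gene, rose 1.30-fold (adjusted p = 0.00317 in limma), as did Jun (1.30-fold, adjusted p = 0.0175), a subunit of AP-1. Fosl1, another AP-1 subunit, rose 1.28-fold (adjusted p = 0.0086), and Hbegf, an EGF receptor ligand, rose 1.29-fold (adjusted p = 0.0244). The member that fell was the chemokine Cxcl1 (1.32-fold, adjusted p = 0.0332), which is named after its value was seen. Fos (0.05, adjusted p = 0.8), Myc (0.10, adjusted p = 0.65) and Ccl2 (-0.13, adjusted p = 0.22), a chemokine first cloned as a PDGF-induced gene, were not called. The call for Jun was lost without vector replicate 3, DaxxA replicate 1 or either DaxxB replicate (adjusted p up to 0.0688). Hbegf kept its call only without vector replicate 2 or DaxxA replicate 2 (up to 0.0855 otherwise), and Cxcl1 only without vector replicate 2 or DaxxB replicate 2 (up to 0.112). On 7 arrays the list had 9 members higher and 1 lower.

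Relatives of the PDGF genes, the VEGF ligands and kindred receptor kinases, had 1 of 12 members higher and 2 lower (median -0.00). Vegfd, a ligand built like PDGF-D and PDGF-C from a cysteine-knot domain, fell 1.87-fold (log2 difference -0.90, adjusted p = 0.000346 in limma). Pdgfrl, a secreted receptor-like protein, fell 1.33-fold (adjusted p = 0.0128). Vegfa rose 1.22-fold (adjusted p = 0.0213), and Flt4, a VEGF receptor, differed by -0.28 (adjusted p = 0.238) and was called on 7 arrays (-0.38, adjusted p = 0.00232). Pdgfrl was not called without vector replicate 1 (0.0518) or DaxxA replicate 1 (0.0548), and Vegfa was called only without vector replicate 2 or DaxxA replicate 2 (adjusted p up to 0.0833 otherwise). On 7 arrays 4 members rose and 4 fell.

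**Figure D3:**
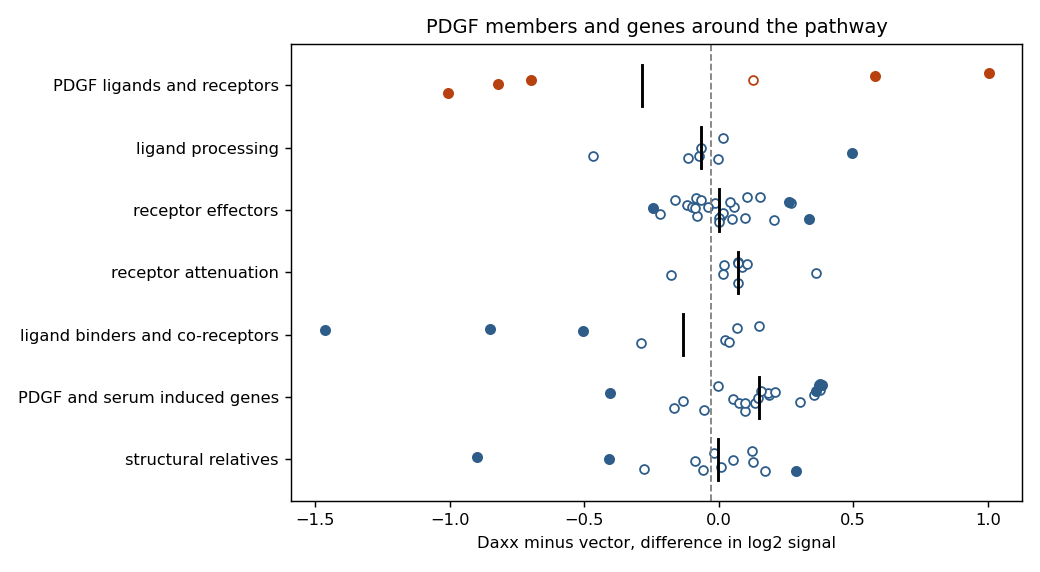
Differences in log2 signal, Daxx minus vector (horizontal axis), of the PDGF genes and of the 6 lists around them, 1 point per gene, filled where the adjusted p is below 0.05; black bars are medians and the dashed line is the median of all genes (-0.03). The PDGF genes lie far to both sides, while most points of the other lists lie near the dashed line.

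PDGF receptors mark mural and mesenchymal cells, so markers of other cell types were set beside them. Of all genes 1.8% were called higher and 2.73% lower on 8 arrays, and 5.26% and 7.57% on the 7 arrays without vector replicate 2. Among 11 markers of smooth muscle and pericytes 3 rose and 0 fell: Tagln (1.97-fold, limma adjusted p = 0.000366), Mcam (1.44-fold, adjusted p = 0.0128) and Acta2 (1.30-fold, adjusted p = 0.00593). Rgs5, a pericyte marker, was 1 of the 2 in this list below the olfactory receptor percentile (4.82), whereas the mural markers Notch3 (8.01) and Mcam (8.90) were above it. On 7 arrays 3 again rose and 0 fell. The mean of that list ran from 7.30 to 7.47 across vector arrays, the highest being vector replicate 2, and from 7.44 to 7.56 across Daxx arrays. Fibroblast markers had 1 of 16 higher and 3 lower, with means of 9.09 to 9.18 (vector) and 8.94 to 9.02 (Daxx). The 3 were Prrx1 (2.10-fold), Twist2 (1.34-fold) and Pdpn (1.30-fold), and Col1a2 rose 1.24-fold. On 7 arrays 1 rose and 5 fell. Mcam lost its call without DaxxA replicate 1 or either DaxxB replicate (adjusted p up to 0.0554), Pdpn without vector replicate 1 or 4, either DaxxA replicate or DaxxB replicate 2 (up to 0.0756), and Col1a2 without any array other than vector replicate 2 or DaxxA replicate 2 (up to 0.136). Of 10 blood and platelet markers 0 rose and 1 fell, the platelet chemokine Ppbp (2.65-fold, adjusted p = 0.00102), with list means of 6.08 to 6.23 (vector) and 5.89 to 6.02 (Daxx). On 7 arrays 2 of these fell. Endothelial (8), epithelial (7) and neural (6) markers had 0 called for Daxx minus vector in limma on 8 and on 7 arrays, and 0 at an unadjusted p below 0.05 on 8. Of all 19938 genes 902 were called and 3076 had an unadjusted p below 0.05 on 8 arrays. Lists this short would hold few calls in any case. In the separate comparisons on 7 arrays 1 endothelial marker was lower in DaxxA (6.8% of all genes were). There 1 epithelial and 1 neural marker were higher in DaxxB (10.9%). Lower in DaxxA than in DaxxB was 1 epithelial marker (2.15% of all genes were called in either direction). The means of the endothelial, epithelial and neural lists ran from 5.82 to 6.13 (vector) and 5.80 to 5.89 (Daxx), from 5.98 to 6.41 and 6.03 to 6.19, and from 6.10 to 6.75 and 6.17 to 6.25. Vector replicate 2 was the highest array for each of these lists. The part of cell makeup in the PDGF differences was not tested.

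For each member that was called, the genes whose log2 values ran most closely with it over the 8 arrays were found by Pearson r. The arrays form 2 conditions, so a gene that separates them well has a high r with every such member, and the values are a description. Pdgfb ran closest with Cd80 (r = 0.998), Stub1 (0.995) and Parvb (0.994), and most opposite to Ifitm3 (-0.998). Leaving out vector replicate 2, Cd80 and Ifitm3 kept these places. For Pdgfa the closest were Gsta4 (0.995), Armcx2 (0.994) and Tm4sf1 (0.993), with Phldb2 opposite (-0.993), and none of these recurred on 7 arrays, where Tnfaip2, Ntn1 and Hdac6 were closest and Ids opposite. For Pdgfd they were Ebf3 (0.996), Mn1 (0.995) and Hs6st2 (0.995), with Dglucy opposite (-0.991), and Hs6st2 was again among the closest 3 on 7 arrays, beside Gnb4 and Igfbp3, with Fhl2 opposite. Pdgfra ran closest with Ccn5 (0.995), Glis3 (0.99) and Slc1a3 (0.989), and Pdgfrb with Nfix (0.995), Slc1a3 (0.994) and Adgra2 (0.994). Tank was the most opposite gene for both receptors (-0.988 and -0.994). On 7 arrays Slc1a3, Dyrk1b and Ccn5 were closest to Pdgfra, with Tank still opposite, whereas Stag3, Bscl2 and Glis3 were closest to Pdgfrb and Klf10 opposite.

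Over 16 other settings of the analysis, Pdgfa, Pdgfb and Pdgfd were called in the Daxx minus vector comparison each time. Their differences ran from 0.55 to 0.61, from 0.91 to 1.08 and from -1.06 to -0.92. Pdgfra ran from -0.95 to -0.73 and Pdgfrb from -0.77 to -0.65, each called in 15 of the 16. Pdgfc ran from 0.10 to 0.16 and was called in 1.

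**Figure D4:**
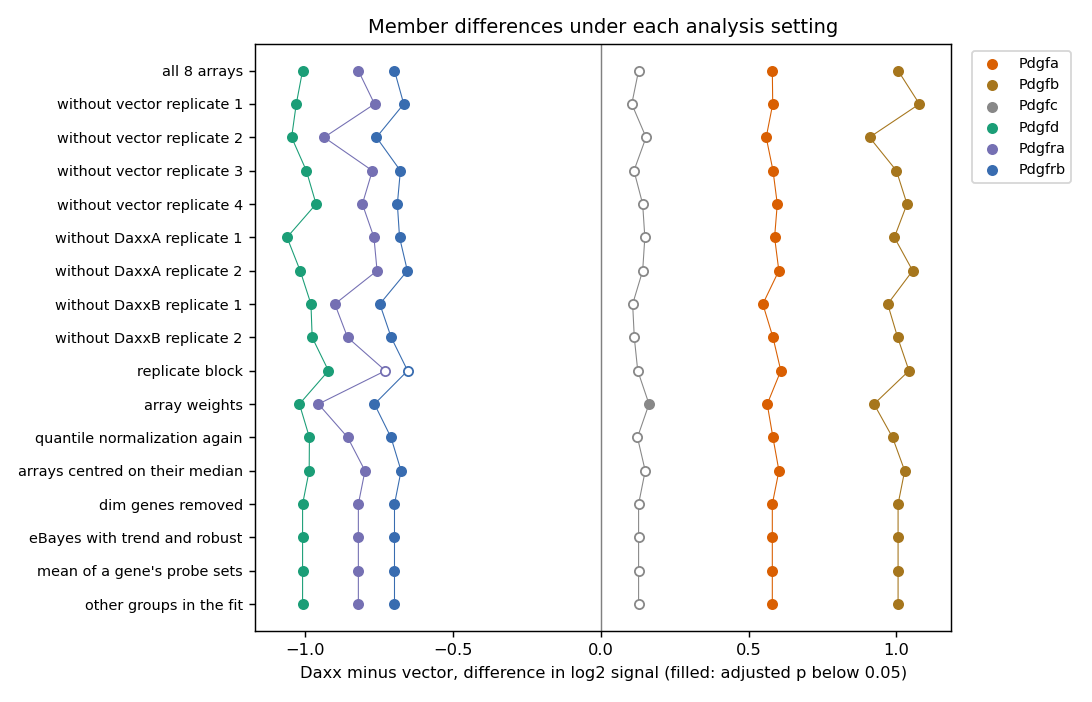
Difference in log2 signal, Daxx minus vector (horizontal axis), of each PDGF gene under the main analysis (top line) and 16 other settings (vertical axis), filled where the adjusted p is below 0.05. No gene crosses 0, and open points outside Pdgfc occur for Pdgfra and Pdgfrb under 1 setting, the replicate number as a block.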

How the data were processed

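RNA of 8 fibroblast samples was measured on Affymetrix arrays after amplification and biotin labelling, per the labels' protocols. The deposited log2 signals were made by the authors with Affymetrix Expression Console and RMA, per the submitters' processing notes. RMA corrects background, quantile normalizes the arrays and gives 1 value per probe set. It compresses small differences near background and hides shifts shared by most genes. Their versions were not given in the sources used here, and the number of arrays limits the precision.

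Of 35556 probe sets 21789 had 1 gene symbol, 1621 several and 12146 none listed. The single-symbol probe set with the highest mean was kept per gene, leaving 19938 genes. limma 3.58.1 in R 4.3.3 (lmFit, eBayes) was fitted over all of them, with 2 conditions for Daxx minus vector and 3 groups for the rest. Benjamini-Hochberg adjustment and a threshold of 0.05 were used. The Daxx minus vector fit was also run on simulated data in which all arrays had equal spread. Those data held no array like vector replicate 2, so they cannot speak to its effect. No p was adjusted over the members alone. Alternatives left out each array, used the replicate number as a block, array weights, other normalizations, a filter on dim genes, another spread estimate, mean probe sets and other groups in the fit.

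The members and lists were chosen with earlier results of these data known. The 12 lists (6 of pathway genes, 6 of markers) had 149 entries, of which 141 were matched, and the others are not analysed here. Named genes were the members, Daxx, up to 4 genes per pathway list by adjusted p, the genes closest to each called member by r, and, chosen after their values were seen, called markers and a few further list members. Predicted genes, olfactory receptors and small RNAs were skipped. Sequences are from RefSeq (GRCm38.p6), where 4 of the 6 members had a listed start. All 6 matched by gene number to its gene table.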

Additional observations from a re-analysis of the deposited data

Results flagged for a closer look

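Among 62 groups of 4 arrays (the vector and the Daxx arrays of each named list gene, member and Daxx), 4 held an array far from the other 3, none of them for a PDGF ligand or receptor. Chance gives about 1 in 20 such groups where all 4 arrays vary alike. That rate is only a guide here, since the Daxx arrays pool DaxxA with DaxxB and list genes were chosen by adjusted p. Vector replicate 2 was that array for Hbegf, where it read 9.23, the lowest vector value, and for Pcsk5 (6.28) and Vegfd (9.20), the highest vector values. The mean of Pcsk5 (5.99) lay below the olfactory receptor percentile, and the floor of signal was raised on that array. For Pik3r1 it was DaxxA replicate 1, which read 9.88, the highest of the Daxx arrays. Without vector replicate 2 the differences were 0.32 for Hbegf (adjusted p = 0.00312) and -0.83 for Vegfd (adjusted p = 8.99e-07) in limma, both in the direction found on 8 arrays.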

How the results depend on the processing

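Every PDGF gene kept its direction under all alternatives in all 4 comparisons. The reversals were Pcsk5, near 0, in Daxx minus vector (0.0136 without vector replicate 2 and 0.0111 with array weights, against -0.07, with -0.1175 to 0.0136 over single arrays left out) and the Daxx signal in DaxxA minus DaxxB (-0.1062 without DaxxB replicate 2, against 0.01, with -0.1062 to 0.1293). Leaving out 1 array gave 446 to 2558 called genes for Daxx minus vector, 71 to 2246 for DaxxA, 82 to 4083 for DaxxB and 0 to 428 between DaxxA and DaxxB, with 5 to 5, 0 to 5, 1 to 6 and 0 to 1 members called. Array weights gave 3231, 2718, 4252 and 485 genes in these comparisons, against 902, 393, 536 and 0, and called 6 members in DaxxB and 1 between DaxxA and DaxxB; the count of members for Daxx minus vector was then 6. Quantile normalization again gave 1428, 663 and 1063 genes, and the trended robust spread 581 and 901 for DaxxA and DaxxB. Removing dim genes gave 600 and 931 of fewer genes tested. Fitting DaxxA or DaxxB with vector alone gave 194 and 278 genes and 3 members each; this was not run for DaxxA minus DaxxB. With the replicate block 162, 0, 0 and 0 genes and 3, 0, 0 and 0 members were called. The labels do not say that a number is shared between groups, so the numbers were not taken as pairs. Deviations of same-numbered arrays correlated at 0.024 to 0.162, and those of differently numbered arrays of different groups at -0.162 to 0.080. In a group of 2 arrays the deviations mirror each other, so these values cannot decide on pairing. Only vector has replicates 3 and 4, so under the block a difference from vector rests on vector replicates 1 and 2. Under the block Pdgfra had a limma adjusted p of 0.141 and Pdgfrb of 0.0611 for Daxx minus vector. The causes were not tested. Most separate DaxxA and DaxxB calls were lost in at least 1 fit without a single array, with differences of like size. RMA signals near background limit Pdgfd most among the members.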
